A study of Mus musculus with 6 samples.

Results

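Elf5, Elf3, Ehf, Spdef, Ets1, Ets2, Etv4, Etv5, Elf1 and Elk3 belong to the ETS family of transcription factors, and their RNA was measured in 3 cell populations of the virgin mouse mammary gland. The 10 genes were found by their symbols in the array design, which gave 19 probes among the 41174 that are not controls. All 10 passed the filter on dim probes, which kept 24839 of the 27670 named genes on the array.

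Each of the 6 groups was 1 array of RNA from virgin C57/B6 mice. P4 was the sorted CD24+CD29hi fraction, labelled as enriched for mammary stem cells, and P5 the sorted CD24+CD29lo fraction, labelled as enriched for luminal progenitors. MEC was total mammary epithelial cells with no sort. Each came once from wild-type (WT) mice and once from mice labelled heterozygous for a knockout of DNP63 (het), the isoform class of p63 without the N-terminal transactivation domain. The sources used here give neither the number or age of the mice behind an array nor the exons removed. Every sample carried Cy5 and was read against a Cy3 reference (Universal Mouse Reference RNA, pooled from 11 cell lines), with no dye swap. A value here is therefore log2(sample/reference) for 1 probe, and values of different probes are not compared. The title of the series places the study around p63 and stem cell activity in the gland.

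ETS factors share a DNA-binding domain that recognises a GGAA core, and they differ in the bases they prefer around it and in the proteins that act with them. An epithelial branch (Elf5, Elf3, Ehf and Spdef) is largely confined to epithelia, while Ets1, Ets2 and the PEA3 group (Etv4, Etv5) are known as targets of growth factor and ERK signalling. In the mammary gland Elf5 is known as a factor of luminal progenitors that drives the alveolar, milk-producing fate downstream of the prolactin receptor.

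The populations were checked on marker lists. All 9 of 9 basal markers (Krt5, Krt14, Acta2 and others) were higher in P4 than in P5 and 7 of 8 luminal markers (Krt8, Krt18 and others) were lower, at an adjusted p below 0.05 in limma. Median log2 ratios of the luminal markers were 1.82 and 1.87 in WT and het P4, against 4.97 and 4.56 in P5. Fibroblast markers had medians of 1.92 and 0.89 in WT and het MEC and between -3.71 and -1.69 in the 4 sorted arrays. Endothelial markers had medians of 2.90 and 3.34 in MEC and 0.44 to 1.46 in the sorted arrays. The MEC arrays thus read higher for markers of other cell types. In such bulk samples fewer cells of a type and less RNA per cell cannot be told apart.

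The targeted gene, Trp63, is read by 3 probes, and the labels do not say whether any lies in the deleted part, so they do not check the genotype labels. The brightest Trp63 probe read 4.41 in WT P4 and 5.29 in het P4, 0.46 and 0.89 in P5, and 2.78 and 2.65 in MEC. After replacement of outlier local backgrounds, as explained with the Elf5 values, it read 5.99 and 5.48 in P4, 0.54 and 0.89 in P5, and 3.71 and 2.66 in MEC. A lower level on all 3 arrays labelled het was seen under neither treatment. Every het against WT difference here is one between arrays so labelled.

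Some of the sequences behind the values are shown first. For 2 genes, Ets1 and Ehf, the probe changes what is seen. The overlapping Ets1 pair printed here gave the same direction in P4 against P5, and the Ets1 probes that differed are not printed. Ets1 has a pair of probes that overlap by 50 bases in the part of the gene that codes for the DNA-binding domain, printed 5′ to 3′ with the bases that differ between the pair in capitals. A_52_P232830 lies at chr9:32655863-32655922 and A_51_P329043 at chr9:32655853-32655912, both on the + strand of mm7.
Ets1 A_52_P232830: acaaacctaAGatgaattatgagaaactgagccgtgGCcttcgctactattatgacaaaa
Ets1 A_51_P329043: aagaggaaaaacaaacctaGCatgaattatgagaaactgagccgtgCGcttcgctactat
Counted from the 5′ end of A_52_P232830, with its base first, the pair differs by A10G, G11C, G37C and C38G. A_52_P232830 was designed on the RefSeq transcript of Ets1 and A_51_P329043 on an older mRNA record.

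Ehf has 3 probes on the - strand of mm7 chromosome 2. The following pair, 60 bases each, cover 160 and 3817 genomic positions and so span an intron. A_52_P205877 lies at chr2:103124715-103124874 and A_52_P272429, nearer the 5′ end of the gene, at chr2:103130537-103134353.
Ehf A_52_P205877: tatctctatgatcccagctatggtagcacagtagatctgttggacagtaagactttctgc
Ehf A_52_P272429: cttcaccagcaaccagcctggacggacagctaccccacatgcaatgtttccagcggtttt
The remaining Ehf probe, A_52_P609918 at chr2:103115014-103115073, lies nearest the 3′ end and was the brightest, so it stands for the gene below.

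Since ETS factors can bind the promoters of their own family, the 250 bases before each RefSeq start in GRCm38.p6 were searched on both strands for CCGGAAG and CAGGAAG, forms of the ETS site that share the last 5 letters but cannot both match at one position. The table held 10 such promoters for 7 of the 10 genes and none for Ehf, Ets1 or Etv4. Of these 10, 1 held either motif, against 17.0% of all 32851 promoters of that length (6.91% with CCGGAAG and 10.8% with CAGGAAG). Shown are Elf5 with its 2 starts, Elf3 and Spdef, which shared a pattern over the arrays, and Elk3, where the match stands in capitals 27 bases before the start on the + strand of the printed sequence.
Elf5, upstream start, chr2:103411848-103412097 (+ strand): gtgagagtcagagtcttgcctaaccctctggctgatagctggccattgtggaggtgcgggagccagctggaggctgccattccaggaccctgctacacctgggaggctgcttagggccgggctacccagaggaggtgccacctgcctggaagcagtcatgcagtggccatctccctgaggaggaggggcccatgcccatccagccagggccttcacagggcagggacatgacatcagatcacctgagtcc
Elf5, downstream start, chr2:103423818-103424067 (+ strand): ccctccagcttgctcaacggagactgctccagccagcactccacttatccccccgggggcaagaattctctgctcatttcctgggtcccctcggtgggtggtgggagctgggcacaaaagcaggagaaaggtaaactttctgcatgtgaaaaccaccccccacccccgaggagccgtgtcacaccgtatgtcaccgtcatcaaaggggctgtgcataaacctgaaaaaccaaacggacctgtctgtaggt
Elf3, chr1:135258473-135258722 (- strand): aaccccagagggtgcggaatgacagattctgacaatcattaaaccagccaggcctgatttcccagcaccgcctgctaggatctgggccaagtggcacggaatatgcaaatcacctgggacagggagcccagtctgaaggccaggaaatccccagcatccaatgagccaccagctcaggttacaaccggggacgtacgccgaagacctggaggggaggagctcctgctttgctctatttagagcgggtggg
Spdef, chr17:27728952-27729201 (- strand): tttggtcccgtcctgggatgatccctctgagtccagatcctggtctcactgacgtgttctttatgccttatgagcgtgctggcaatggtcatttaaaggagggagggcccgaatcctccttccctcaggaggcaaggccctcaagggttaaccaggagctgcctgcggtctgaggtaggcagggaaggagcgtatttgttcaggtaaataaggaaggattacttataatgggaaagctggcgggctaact
Elk3, chr10:93311160-93311409 (- strand): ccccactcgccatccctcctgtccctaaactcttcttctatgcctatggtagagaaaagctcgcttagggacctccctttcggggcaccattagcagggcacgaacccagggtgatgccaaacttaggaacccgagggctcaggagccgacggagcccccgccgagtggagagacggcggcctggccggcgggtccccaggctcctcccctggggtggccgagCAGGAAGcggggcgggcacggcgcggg
No match says only that these letters are not in this window.

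The 4 epithelial ETS genes were all lower in P4 than in P5, by 6.19-fold to 27.0-fold on the fitted means of both genotypes. They were the only members of the 10 past the threshold, an adjusted p below 0.05 (limma, Benjamini-Hochberg over all genes tested). Across all 24692 genes 10.5% were called in this comparison, 5.52% as lower in P4. After replacement of outlier local backgrounds (explained below), 6 members were called, against 15.0% of all genes. The median difference of the 10 members was -0.27, against 0.04 over all genes.

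Elf5 (A_51_P455866, chr2:103301588-103301647, + strand of mm7) read 0.20 in WT P4, 1.82 in het P4, 4.97 in WT P5, 6.56 in het P5, 3.30 in WT MEC and 4.41 in het MEC. Both P5 arrays lay above both MEC arrays, and both P4 arrays lay below them, with no overlap between populations. P4 minus P5 was -4.77 in WT and -4.74 in het, and the limma fit gave -4.76 ± 0.17 (SE) with an adjusted p of 0.0061. Only 38 of the 24692 genes tested had a larger difference in either direction.

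The scanner signal shows where the Elf5 ratio was thin. Its mean Cy5 signal was 119.5 in WT P4 and 216.8 in het P4 over local backgrounds of 41 and 37.5, and 2333 to 3489 on the other 4 arrays. Its reference signal in Cy3 was between 60.4 and 130.6 over backgrounds of 33 to 40 on all arrays, so each ratio has a dim denominator. The local background also had outliers elsewhere on the arrays, reaching 4501.5 in Cy5 and 30168 in Cy3 on WT P4, 2821 and 6566 on WT MEC, 1457 and 5972 on WT P5 and 1056 and 1125 on het P4, against 352.5 and 501 on het MEC and 49 and 51 on het P5. Background correction (normexp) fits all spots of an array together, so the main results are also given with such backgrounds replaced. Those marked by the scanner software or above 2 times the array's median were set to the median of the array's remaining backgrounds.

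After this replacement, Elf5 read 0.87 in WT P4, 2.10 in het P4, 5.55 in WT P5, 6.56 in het P5, 4.57 in WT MEC and 4.44 in het MEC. The order of the populations was as before, while the order of WT MEC and het MEC turned. P4 minus P5 was then -4.57 ± 0.35, with an adjusted p of 0.0036 in limma.

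Elf3, an epithelial factor linked to terminal differentiation, read 0.19 in WT P4 and 0.19 in het P4, 3.08 and 2.57 in WT and het P5, and 1.41 and 1.98 in WT and het MEC. The populations did not overlap. It was 2.63 ± 0.27 (log2) lower in P4 than in P5, an adjusted p of 0.0144, and after background replacement 2.58 lower (adjusted p 0.0048).

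Spdef, known for its part in secretory cell differentiation, read 0.04 and 0.12 in WT and het P4, 2.75 and 2.77 in WT and het P5, and 0.39 and 1.81 in WT and het MEC. The P4 and P5 arrays agreed closely between genotypes, whereas the MEC arrays stood 1.42 apart. P4 minus P5 was -2.67 ± 0.39 with an adjusted p of 0.0272. Replacing outlier backgrounds gave -2.83 (adjusted p 0.0089).

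Ehf, the close relative of Elf3 and Elf5, read 0.03 and 0.21 in WT and het P4, 2.78 and 3.63 in WT and het P5, and 1.24 and 1.60 in WT and het MEC with the probe A_52_P609918. This probe was not well above background in Cy5 on WT P4, so its Cy5 level there is only a bound, and WT P5 was at least 6.64-fold brighter. The fitted P4 minus P5 was -3.09 ± 0.19 (adjusted p 0.0075). It was -3.29 once outlier backgrounds were replaced (adjusted p 0.0043).

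The 3 Ehf probes did not give the same size. P4 minus P5 was -3.09 for A_52_P609918, -2.03 for A_52_P205877 and -0.34 for A_52_P272429, in the order from the 3′ to the 5′ end. A_52_P205877 was also not well above background on WT P4. A_52_P272429 was well above background on all 6 arrays, with 0.14 and 1.20 in WT and het P4 and 0.71 and 1.31 in WT and het P5, and het P4 there lay above WT P5. When only probes seen on all 6 arrays were kept, this probe stood for Ehf and the call was lost (adjusted p 0.379).

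**Figure D1:**
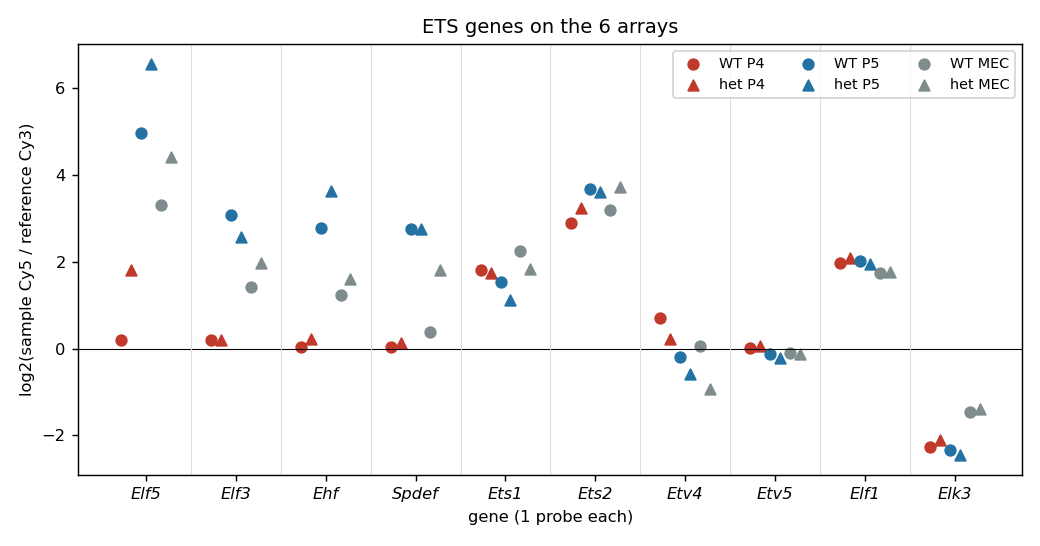
Log2(sample Cy5/reference Cy3) of the 10 ETS genes on the 6 arrays, 1 point per array (circles WT, triangles het; red P4, blue P5, grey MEC), with backgrounds as given. Elf5, Elf3, Ehf and Spdef show P4 lowest and P5 highest, with Elf5 ranging from 0.20 to 6.56, while Elf1 stays between 1.75 and 2.08.

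Among the ERK-responsive members, differences between P4 and P5 were smaller, and none was called. Etv4, of the PEA3 group, read 0.70 in WT P4, 0.22 in het P4, -0.20 in WT P5, -0.59 in het P5, 0.07 in WT MEC and -0.94 in het MEC. Both P4 arrays were above both P5 arrays, the reverse of the order in Elf5. P4 minus P5 was 0.85 ± 0.19 with an adjusted p of 0.0652, and 1.04 with outlier backgrounds replaced, where it was called (adjusted p 0.0294).

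Etv5, the other measured PEA3 member, stayed between -0.22 and 0.06 on all arrays with its brightest probe. P4 minus P5 was 0.21 with that probe (adjusted p 0.352) and 0.70 with its other probe, A_52_P631015, for which both P4 arrays (0.16 and -0.20) lay above both P5 arrays (-0.72 and -0.74).

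Ets2, a target of ERK phosphorylation, read 2.89 and 3.24 in WT and het P4, 3.68 and 3.61 in WT and het P5, and 3.19 and 3.72 in WT and het MEC. Both P5 arrays were above both P4 arrays, and P4 minus P5 was -0.58 ± 0.18 without a call (adjusted p 0.127).

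Ets1, best known from lymphocytes and endothelium, depended on the probe. The brightest, A_52_P194250, read 1.81 and 1.73 in WT and het P4, 1.54 and 1.13 in WT and het P5, and 2.24 and 1.83 in WT and het MEC, and gave a P4 minus P5 of 0.44 (adjusted p 0.135). That difference became 0.61 with outlier backgrounds replaced and was called (adjusted p 0.0475). The 3 other probes gave -0.12 (A_52_P232830), -0.25 (A_51_P329043) and -0.61 (A_52_P258291), so no direction holds for the gene. The overlapping pair printed above tracked each other: A_52_P232830 read -0.13, 0.05, -0.50, -0.43, 1.08 and 0.49 and A_51_P329043 -0.16, 0.12, -0.67, -0.45, 0.58 and 0.19 in WT P4, WT P5, het P4, het P5, WT MEC and het MEC. On both, the MEC array of each genotype was its highest.

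Elf1, a broadly expressed factor, read between 1.75 and 2.08 on all 6 arrays, and P4 minus P5 was 0.04 (adjusted p 0.889). Its 3 probes gave 0.04, -0.18 and -0.10. Elk3, a ternary complex factor that can repress, read -2.28 and -2.10 in WT and het P4, -2.34 and -2.45 in WT and het P5, and -1.45 and -1.38 in WT and het MEC. Both P4 arrays were slightly above both P5 arrays for Elk3, with a P4 minus P5 of 0.21 that was not called (adjusted p 0.399), and both MEC arrays were well above them. The other Elk3 probe, A_51_P120674, gave the same order. It read -1.27 and -1.13 in WT and het P4 and -1.50 and -1.52 in WT and het P5. In WT and het MEC it read -0.78 and -0.75.

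**Figure D2:**
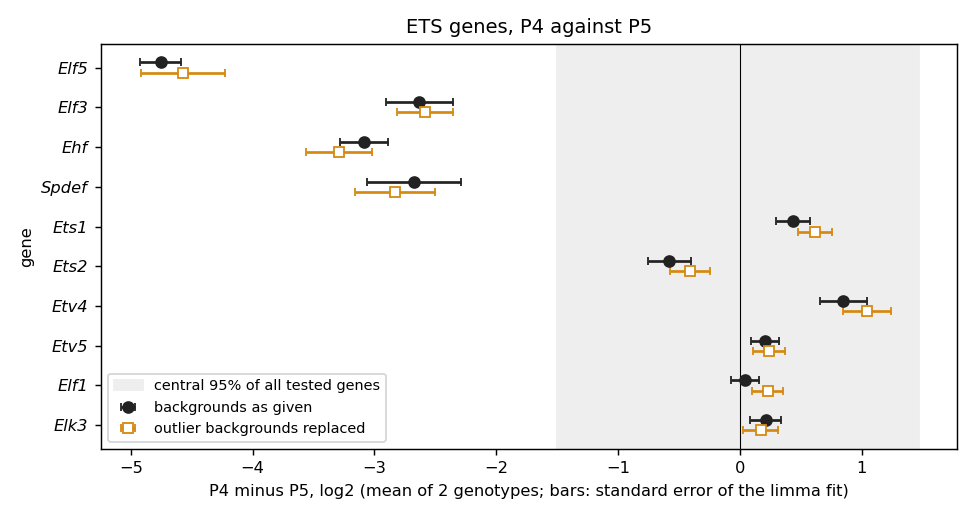
P4 minus P5 (log2, fitted mean of both genotypes, bars the standard error of the limma fit) for the 10 genes, with backgrounds as given (black) and outlier backgrounds replaced (orange). The grey band holds the central 95% of all genes tested, -1.50 to 1.47. Elf5, Elf3, Ehf and Spdef lie left of the band and the other 6 genes inside it.

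**Figure D3:**
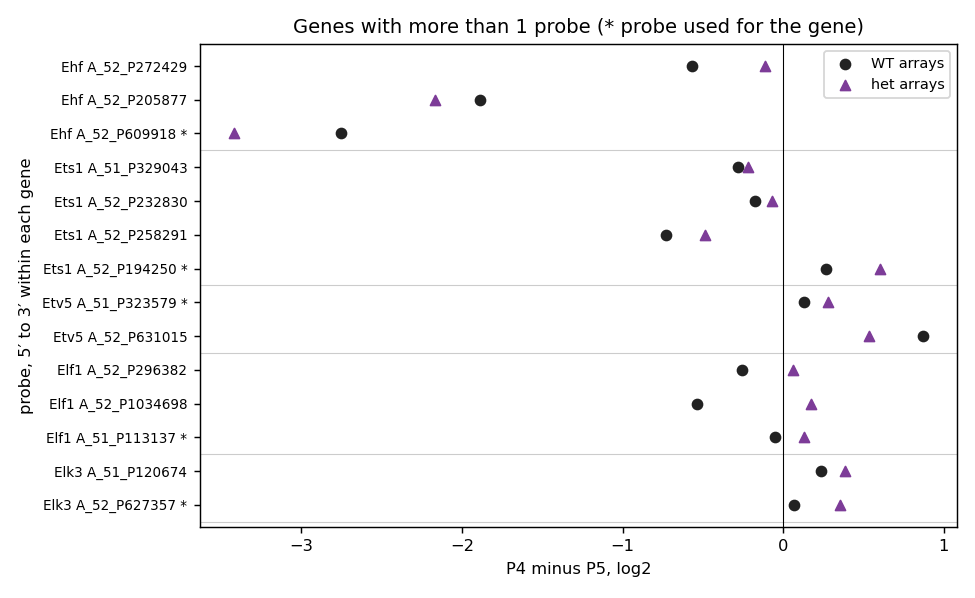
P4 minus P5 (log2) of each probe of the 5 genes with more than 1 probe, on the WT arrays (circles) and the het arrays (triangles), ordered 5′ to 3′ within a gene. Ehf runs from -0.34 at its 5′ probe to -3.09 at its 3′ probe in the mean of both genotypes, and the Ets1 probes lie on both sides of 0.

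With any 1 of the 4 sorted arrays left out, the fit keeps 1 residual degree of freedom and called 0 of all genes in P4 against P5, with 3758 to 5836 genes at an unadjusted p below 0.05, so the members' calls were lost too. With 1 array of the 6 left out, P4 minus P5 lay between -4.89 and -4.62 for Elf5, between -3.37 and -2.80 for Ehf, between -3.04 and -2.31 for Spdef and between -3.02 and -2.24 for Elf3. Without WT MEC or without het MEC, which also leaves 1 residual degree of freedom, 5 members were called. Of all genes, 4625 of 24768 were called without WT MEC and 4631 of 24733 without het MEC.

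Against the unsorted cells, 3 members were lower in P4 and 0 higher. P4 minus MEC was -2.85 for Elf5 (adjusted p 0.0202), -1.30 for Ehf (0.0395) and -0.77 for Elk3 (0.0441) in limma. Of all genes 6.84% were called in this comparison, 4.09% as lower. Elf3 (-1.50, adjusted p 0.0521) and Spdef (-1.02, 0.195) were not called. Ehf again hung on its probe, since A_52_P272429 gave 0.26. The other Elk3 probe, A_51_P120674, was also lower in P4 (WT -1.27, het -1.13) than in MEC (WT -0.78, het -0.75). Its difference was smaller than that of the tested probe. After background replacement 5 members were called, against 17.9% of all genes. Elf5, Elf3, Ehf and Elk3 were lower in P4, and Etv4 was higher (1.05, adjusted p 0.0278 in limma). With backgrounds as given Etv4 was 0.89 higher, without a call (0.0705).

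In P5 against MEC, Elf5 was 1.91 ± 0.17 higher (adjusted p 0.0195) and Ehf 1.79 ± 0.19 higher (0.0271), while Elk3 was 0.98 ± 0.13 lower (0.0357). The size for Ehf depended on the probe, since A_52_P205877 gave 0.995 and A_52_P272429 gave 0.60, in the same direction. Ehf was called here in 6 of 10 settings, the main one included. The background was 3.93% of genes called. After background replacement 3 members were again called, against 6.16% of all genes, but Elf5, at 1.55 higher, was not among them (adjusted p 0.0688) and Ets1, at -0.82, was (0.0397). With backgrounds as given, Elf3 (1.13, adjusted p 0.107), Spdef (1.66, 0.100) and Ets1 (-0.70, 0.0771) were not called. Elk3 was thus lower in both sorted populations than in MEC, in the same direction on its other probe but by less. The MEC arrays lay on another slide, so for both comparisons population and slide cannot be told apart. Markers of other cell types did so too: 8 of 10 endothelial markers were called lower in P4 than in MEC and 7 of 10 in P5, and 5 of 8 fibroblast markers in P4 (median -3.59) and 7 of 8 in P5 (median -4.61). Their part in the Elk3 result was not tested.

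Other members of the family served as the setting. Of 16 further ETS genes on the array, 15 were tested, and their median P4 minus P5 was 0.36. Fli1, an endothelial and blood cell factor, was higher in P4 than in P5 (1.44, adjusted p 0.0399) and Etv6, a repressor, was lower (-0.69, 0.0380). Erg, an endothelial factor, was lower than in MEC in both P4 (-1.91, adjusted p 0.0219) and P5 (-1.72, 0.0193), and Fli1 was lower in P5 (-2.85, 0.0193). Elf4 was higher in P4 than in MEC (3.37, adjusted p 0.0405).

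Genes around Elf5 in its known pathway were counted from lists. Of 14 luminal progenitor and alveolar genes, 10 were lower in P4 than in P5 and 0 higher, with a median of -3.01, as with Aldh1a3 (-5.57), Cldn4 (-4.63) and the casein Csn3 (-4.01). Of the milk genes in that list, Csn2 (-0.09), Lalba (-0.36) and Wap (0.27) were not called. Low values in P4 were not particular to that list. The 7 hormone-sensing luminal markers (Esr1, Pgr and others) had medians of 0.29 and 0.46 in WT and het P4. In WT and het P5 these were 3.77 and 3.22. Of 10 genes of the prolactin and Stat5 pathway, 2 were lower, the receptor Prlr (-4.59) and Stat5b (-1.30), and 2 were higher, the inhibitor Socs1 (1.52) and Tnfrsf11a (1.18), the receptor of RANK ligand. Of 11 partners in epithelial differentiation, 6 were lower, among them Grhl1 (-3.88) and Foxa1 (-3.48), and Snai2, a repressor of epithelial genes, was higher (5.75).

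The FGF and ERK feedback genes, the setting of Etv4 and Etv5, had 1 call among 14, beside the 10.5% of all genes called. Spred1, an inhibitor of ERK signalling, was higher in P4 (1.30, adjusted p 0.0144), and none was lower. The median of the list was 0.47.

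Between genotypes, no member was called over the 3 populations, and 0 of 24692 genes were (0% called), with 5163 genes at an unadjusted p below 0.05. The smallest adjusted p of any gene was 0.206. Every gene with an unadjusted limma p up to that of Etv4 (0.0126) shared this adjusted p, Elf5 (2.7e-04) among them. It therefore does not set these 2 members apart. For Elf5 the mean het minus WT was 1.44 ± 0.14. The Elf5 difference after background replacement was 0.71 with an adjusted p of 0.349. On the 4 sorted arrays alone, 853 genes were called (3.44%), 828 of them higher on the het arrays, and Elf5 was the 1 member called, with a difference of 1.61 and an adjusted p of 0.0234.

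Each population then gives 1 array against 1, with no test. A spot's technical error, from 245 probes printed 10 times on each array, was an SD of 0.14 for a difference between 2 arrays. It was taken from spots within an array, so it holds no spread between mice. Differences between arrays in hybridization, background correction or scaling are not in it either. At least 2-fold apart were 1 member in P4, 1 in P5 and 3 in MEC, against 6.29%, 3.16% and 2.71% of all genes. On slide 1 both WT arrays lay before both het arrays and on slide 2 WT lay before het, so genotype and position on the slide cannot be told apart.

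With backgrounds as given, the array labelled het read higher for Elf5 by 1.62 in P4, by 1.60 in P5 and by 1.12 among MEC. Replacing outlier backgrounds made these differences 1.23, 1.02 and -0.13. Over 10 settings, which hold 6 distinct values for its 1 probe, it lay between 0.96 and 2.27 in P4 and between 0.88 and 2.02 in P5, so it was positive in every one, and in MEC between -0.13 and 2.14 with both signs. Raw Cy5 signal for Elf5 was higher on het P4 than on WT P4 (216.8 against 119.5), similar in P5 (3489 against 3334) and lower on het MEC (2333 against 3321), before any scaling.

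Markers were set beside the Elf5 difference in P4. The luminal progenitor and alveolar genes had a median of 0.12 in WT P4 and 0.71 in het P4, and 5 of 14 were at least 2-fold higher, among them Aldh1a3 (1.99), Ltf (1.94) and Cldn4 (1.51). Under background replacement, 1 of 14 was at least 2-fold higher and 1 at least 2-fold lower. With backgrounds as given, the 8 general luminal markers had medians of 1.82 and 1.87, and 2 were at least 2-fold higher. Basal markers were higher on het P4 as well, 9 of 9 with a median difference of 0.73, as were endothelial markers (median 0.70, 3 of 10 at least 2-fold) and fibroblast markers (median 0.64, 2 of 8). Of the 1486 genes at least 2-fold apart in P4, 1466 were higher on het P4. With outlier backgrounds replaced, medians in WT and het P4 were 4.92 and 5.48 for basal markers and 2.12 and 1.87 for luminal ones. They were 1.32 and 1.53 for endothelial markers and -2.22 and -1.72 for fibroblast markers. The het minus WT of Trp63, a basal marker, then turned from 0.89 to -0.50. The largest local background was 4501.5 in Cy5 and 30168 in Cy3 on WT P4, against 1056 and 1125 on het P4. The part of these in the Elf5 difference was not tested.

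Etv4 was lower on the het array in all 3 populations, by 0.48 in P4, 0.39 in P5 and 1.01 in MEC. After background replacement it was lower by 0.82, 0.39 and 1.07. The value was negative in each population under all 10 settings, which hold 6 distinct values for its 1 probe. The mean over populations was -0.63 with an adjusted p of 0.206 in limma, and was not called.

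Ets1 leaned the same way as Etv4. Its brightest probe gave a het minus WT of -0.07, -0.41 and -0.40 for P4, P5 and MEC, and -0.40, -0.46 and -0.69 with outlier backgrounds replaced. Of its other probes, A_52_P232830 gave -0.37, -0.47 and -0.59, A_51_P329043 -0.51, -0.57 and -0.39, and A_52_P258291 -0.20, -0.44 and 0.05 in P4, P5 and MEC. The mean of -0.30 for the brightest probe was not called (adjusted p 0.245).

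Spdef was 1.42 higher on het MEC than on WT MEC, and 0.91 higher with outlier backgrounds replaced, and 0.08 and 0.02 higher in P4 and P5 with backgrounds as given. After background replacement the P4 and P5 values were -0.02 and -0.44. In MEC the median of the 8 luminal markers moved too, from 3.36 to 4.23, with 3 at least 2-fold higher, and that of the 8 fibroblast markers from 1.92 to 0.89, with 3 at least 2-fold lower. Whether these bear on Spdef was not tested. Ehf was 0.36 higher on het MEC with backgrounds as given and -0.78 apart with outlier backgrounds replaced, so its sign turned. In P4 and P5 Ehf was 0.18 and 0.85 higher on the het array, and 0.11 and 0.24 after replacement. With backgrounds as given, its probe A_52_P272429 was 1.06, 0.60 and 0.33 higher on the het array in P4, P5 and MEC. Etv5, Elf1 and Elk3 differed by at most 0.18 between genotypes in any population with backgrounds as given, using the brightest probe. Another Elf1 probe, A_52_P1034698, was 0.81 higher on het P4. The other Etv5 probe, A_52_P631015, read 0.16 and -0.20 in WT and het P4 and -0.01 and -0.40 in WT and het MEC. In WT and het P5 it read -0.72 and -0.74.

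Of the other ETS genes, 3 of 14 were at least 2-fold higher on het P4 than on WT P4: Elf4 (2.07), Erg (1.23) and Fev (1.20). Erg was also 1.31 higher on het P5.

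**Figure D4:**
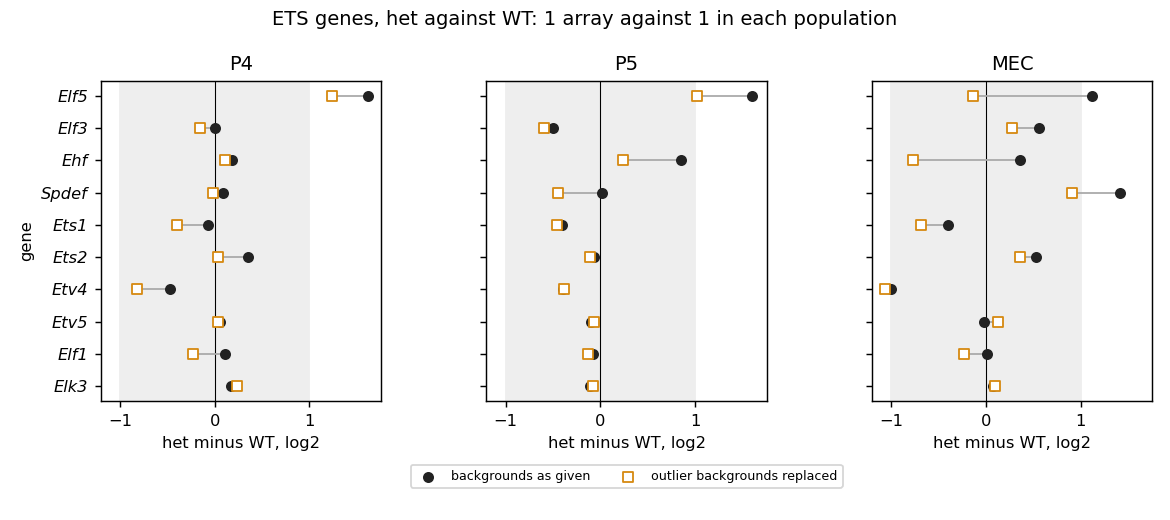
Het minus WT (log2, 1 array against 1) of the 10 genes in P4, P5 and MEC, with backgrounds as given (black) and outlier backgrounds replaced (orange), joined by a grey line. The shaded band is less than 2-fold. Elf5 lies beyond it in P4 and P5 under both treatments and moves from 1.12 to -0.13 in MEC.

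The genes nearest to a member in pattern were found as those with the smallest root mean square distance between the 6 log2 ratios after each gene was centred on its own mean, over 24682 genes. Points share the arrays, the reference and the scaling, so this is a description. Nearest to Elf5 were Cldn4, a tight junction protein (distance 0.25), Fgb, a fibrinogen chain (0.34), Clic6, Aldh1a3, Snorc, Mal2 and Fam25c, and an unnamed transcript lay between Fgb and Clic6. Of these 8, 3 were also among the nearest 8 with outlier backgrounds replaced, namely Fgb, Aldh1a3 and the unnamed transcript. Cldn4 was not.

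Nearest to Spdef were Myo5c, a motor protein of secretory cells (0.07), and Prr15l (0.12), both also nearest with outlier backgrounds replaced. Myo5c read 0.26 on WT MEC and 1.88 on het MEC, close to the 0.39 and 1.81 of Spdef. Nearest to Ehf were Slc5a7 and the tight junction gene Ocln, and nearest to Elf3 were H2bc14 and Ccdc88c. Etv4 had 2 transcripts listed by accession alone, while Ets1 had Zfp668 and Spata2, and Ets2 had Slc38a10 and Golga2. Etv5 had Lin7b and Trim60, Elf1 had Cdkn2d and Copg1, and Elk3 had Tmem184b and Nus1. With outlier backgrounds replaced, Zfp668 and Tmem184b stayed among the nearest 2 to Ets1 and Elk3. Spata2 and Nus1 did not, nor did any gene given for Ehf, Elf3, Etv4, Ets2, Etv5 or Elf1.

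**Figure D5:**
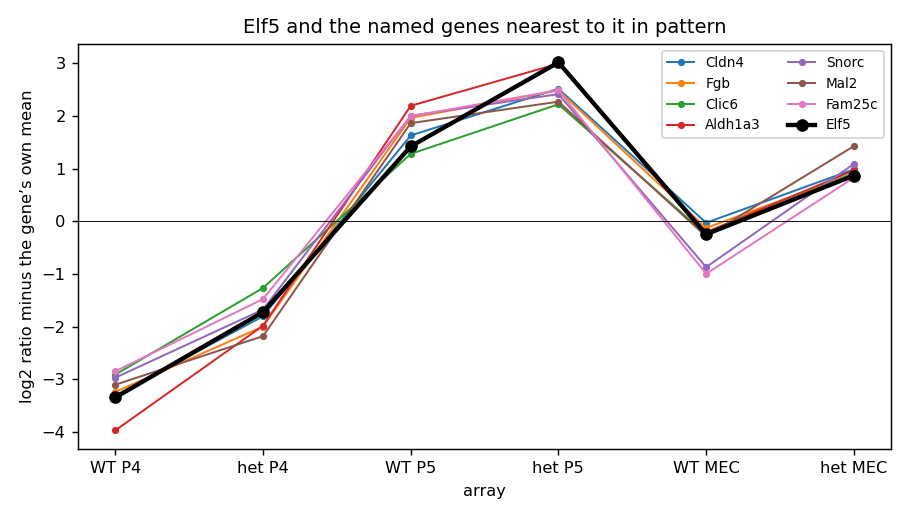
Log2 ratio minus the gene's own mean over the 6 arrays, for Elf5 (black) and the 7 named genes nearest to it (colours). Each is lowest on WT P4 and highest on het P5, with Cldn4 0.25 from Elf5 in root mean square distance.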

How the data were processed

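RNA was measured on 6 Agilent arrays of 45018 spots, 1 per population and genotype. Per the submitters' processing notes, Agilent Feature Extraction 9.5.3.1 was used. The deposited scanner files give each spot's mean signal and median local background as raw intensity. A log10 ratio of Cy5 to Cy3, already background-subtracted and dye-normalized by the scanner software, is deposited beside them. Log2 ratios in the deposited series table followed these scanner ratios (correlations across probes of 0.988 to 0.999), with direction sample over reference and no further centring found. Probe coordinates are mm7, per the file headers.

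Intensities were corrected with normexp (offset 50) and loess within each array, with limma 3.58.1 under R 4.3.3 (helper packages jsonlite 2.0.0 and data.table, version 1.17.8). Spots marked as outliers or non-uniform were left out, 125 to 310 per array. Between 72.1% and 87.7% of spots were well above background in Cy5, median Cy5 signal over median background ran from 3.13 to 4.88, and the number of arrays limits the precision. Genes with a probe well above background on at least 2 arrays were kept, each by its brightest probe. Probes were named by RefSeq accession (22951), synonym (3109) or array symbol (15114). Of the kept genes, 24692 with values on all 6 arrays were tested in an additive limma fit of population and genotype, with 2 residual degrees of freedom, checked on simulated data. The residual also holds any population-by-genotype difference. Calls are at a Benjamini-Hochberg adjusted p below 0.05 over all genes. Within a population, 2-fold differences of 1 array against 1 were counted without a test, for genes seen on either array. The p-values measure the spread between these arrays, which may be technical. A fold is on the log2 ratio scale with the offset, which understates changes of dim probes.

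Every probe of the 10 genes is described for P4 against P5. For the other comparisons only some probes beyond a gene's brightest are given. From each list, genes past the threshold with the largest differences were named, at most 6 per list and comparison, with a few uncalled milk genes chosen after their values were seen. The nearest 8 genes are given for Elf5 and 2 for each other member. The members and lists were chosen with earlier results of these data known. Alternatives covered background, scaling, filter, probe choice, the Cy5 channel alone, the scanner ratio, the series table, the sorted arrays alone and leaving out each array.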

Additional observations from a re-analysis of the deposited data

Results flagged for a closer look

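Elf3, of the epithelial branch, went opposite ways between genotypes in 2 populations. Het minus WT was -0.51 (log2) in P5 and 0.56 in MEC, from 1 array of each genotype. The arrays give no spread between mice. With outlier backgrounds replaced the values were -0.59 and 0.27. The difference between the populations was not tested.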

How the results depend on the processing

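With 1 array per group the number of members called moved with the setting. No paired analysis was possible because the labels give no replicate numbers to pair arrays by, and the fit already compares populations within each genotype. In P4 minus P5 the main count of 4 was 3 to 6 under the other settings and 0 to 5 when 1 array was left out. In P4 minus MEC the count of 3 became 7 with the Cy5 channel alone, 7 with median centring, 5 with outlier backgrounds replaced, and 6 with the scanner ratio and 6 with the series table, and was 0 to 5 with 1 array left out. In P5 minus MEC the count of 3 became 1 with Cy5 alone, 6 with median centring, and 0 with the scanner ratio and 0 with the series table, and was 0 to 5 with 1 array left out. In het minus WT over populations the count of 0 became 6 with median centring, 1 with an offset of 0 and 1 with the sorted arrays alone, and was 0 to 1 with 1 array left out. Members 2-fold apart in P4 went from 1 to 0 with Cy5 alone, 6 with median centring and 2 with probes seen on all 6 arrays. In P5 they went from 1 to 2 with median centring, 2 with an offset of 0, and 0 with the scanner ratio and 0 with the series table. In MEC they went from 3 to 0 with Cy5 alone, and to 1 with outlier backgrounds replaced, 1 with the scanner ratio and 1 with the series table. The cause of these moves was not tested. Counts over all genes moved too. With median centring 7821 of 24692 genes were called over populations, against 0 in the main fit. In P4 minus MEC it called 6984 (main 1688) and in P5 minus MEC 8240 (main 970). In P4 minus MEC 4953 genes were called with Cy5 alone and 4344 with the scanner ratio. In P5 minus MEC these were 1702 and 1604. An offset of 0 called 411 genes over populations. Within P4, 8928 of 23607 genes were 2-fold apart with median centring (main 1486). Median centring moved the median of all genes to -0.45 for het minus WT in P4, -0.22 in P5 and -0.21 over populations, and to -0.23 in P4 minus MEC and -0.35 in P5 minus MEC.

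Several differences changed sign, most of them below 0.5 in size but Cited1 in P5 minus MEC (1.13), Ehf in P4 minus MEC (-1.30) and Elf5 in MEC (1.12) larger. Under median centring the reversals included Cited1 (-0.16), Elf1 (-0.91), Ets2 (-1.13) and Etv4 (-0.59) in P5 minus MEC, Elf1 in P4 minus MEC (-0.87), and Elf1 (-0.93), Elf3 (-0.67), Elk3 (-0.98) and Ets2 (-0.79) in het minus WT over populations. With Cy5 alone they included Ets2 (-0.055), Etv4 (-0.17) and Etv5 (0.065) in P5 minus MEC, Ehf (-0.027), Elf1 (-0.18), Elf3 (-0.36), Elk3 (-0.065) and Etv5 (0.10) over populations, and Elf5 in MEC (-0.00737). With outlier backgrounds replaced they included Etv5 in P5 minus MEC (0.0061), Ehf (-0.14), Elf1 (-0.20), Elf3 (-0.16) and Etv5 (0.033) over populations, Elf5 (-0.13) and Ehf (-0.78) in MEC, Spdef in P5 (-0.44), and Elf1 in P4 (-0.23) and MEC (-0.24). The scanner ratio and the series table both turned Etv5 in P5 minus MEC (0.13), and Elf1 (-0.20), Elf3 (-0.16) and Elk3 (-0.0363) over populations. With the mean over probes they included Elf1 (-0.080) and Ets1 (-0.14) in P4 minus P5. On probes seen on all 6 arrays they included Ehf in P4 minus MEC (0.26), and on sorted arrays alone Elf3 over populations (-0.25).

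With 1 array left out, Elf1 ran from -0.029 to 0.11 in P4 minus P5. In P5 minus MEC the ranges were -0.065 to 0.44 for Ets2, -0.25 to 0.33 for Etv4 and -0.11 to 0.0037 for Etv5. Over populations they were -0.033 to 0.058 for Elf1, -0.25 to 0.28 for Elf3, -0.021 to 0.12 for Elk3 and -0.058 to 0.017 for Etv5. Elf5 in P4 minus P5 stayed between -5.00 and -3.87 over 11 settings that kept all sorted arrays, the main one included, and was called in each, as was Elf3, while leaving out a sorted array left no call for any gene in that comparison. Between P4 and MEC or P5 and MEC the slide cannot be told apart from the population. Ehf and Spdef lie near background in P4, so the size of their differences is limited by signal over background.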
